A study of Mus musculus with 46 samples.

Results

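Signalling by GDNF was followed through 6 genes in the gonads of mouse embryos at E12.5, in mid-gestation: the ligand genes Gdnf and Nrtn, the co-receptor genes Gfra1, Gfra2 and Gfra3, and the receptor gene Ret. They were chosen as the rows that carry exactly these symbols, and all 6 were found among 33331 gene rows. Poly(A)-selected RNA was sequenced from pairs of whole gonads in 46 libraries, 24 XX and 22 XY. The embryos were wild type or carried mutations in Enh13, a distant enhancer of Sox9, which encodes the transcription factor that starts Sertoli cell differentiation. Each sex had 3 wild-type libraries, 3 of 1bp-ins heterozygotes, 3 of 3bp-del heterozygotes, 5 of 1bp-ins homozygotes and 5 of 3bp-del homozygotes. A further genotype, labelled 3bp-12bp-del and homozygous, had 5 XX and 3 XY libraries, and the labels do not say which alleles it combines. The labels do not state the mouse strain or that replicates are separate embryos, so p-values measure the spread between these samples, which may be technical. In whole gonads, fewer cells of a type and less RNA per cell cannot be told apart.

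GDNF and neurturin, the product of Nrtn, are secreted growth factors. Each binds a GFRα co-receptor anchored in the cell membrane, and the pair then activates RET, a receptor tyrosine kinase. GDNF prefers GFRα1 and neurturin prefers GFRα2, whereas GFRα3 is the co-receptor of artemin. In the testis GDNF is a product of Sertoli cells and maintains spermatogonial stem cells. Outside the gonad RET is known from the nephric duct and ureteric bud, where GDNF drives branching, and from neural crest derivatives such as sympathetic and enteric neurons. Nephric duct and adrenal tissue lie next to the gonad at this age, so their markers were read in every library.

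In the GENCODE M21 annotation of GRCm38 (mm10), Gdnf lies on chromosome 15 (7810846 to 7837575, plus strand) and Nrtn on chromosome 17 (56751325 to 56757530, minus strand). Gfra1 lies on chromosome 19 (58235604 to 58455909, minus strand), Gfra2 on chromosome 14 (70890120 to 70979838, plus strand), and Ret on chromosome 6 (118151745 to 118197718, minus strand). The values are for whole genes, over all annotated exons. The exons of Gfra1 overlap those of an antisense gene, Gm16277, on the opposite strand. How strand was handled is not given in the sources used here, so reads of these overlapping genes cannot be told apart. No overlapping gene was annotated for the other 5.

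The stretches of 250 bases upstream of the transcript starts of Gdnf and Gfra1 are shown because these genes moved together across the groups. They come from the RefSeq promoter table (GRCm38.p6), in which 3 of the 6 genes were matched, and run 5′ to 3′ on the strand of the gene. Capitals mark the core of the SOX motif, ACAAT, or ATTGT where it is read on the other strand. Gdnf has 2 starts in that table, at chr15:7809798-7810047 and chr15:7813477-7813726 (plus strand), and the Gfra1 stretch is chr19:58455399-58455648 (minus strand).
Gdnf, first start: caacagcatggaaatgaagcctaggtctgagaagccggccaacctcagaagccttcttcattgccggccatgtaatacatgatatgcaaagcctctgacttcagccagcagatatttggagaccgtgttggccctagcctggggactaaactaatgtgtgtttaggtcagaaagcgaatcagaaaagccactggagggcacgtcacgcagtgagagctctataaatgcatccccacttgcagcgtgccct
Gdnf, second start: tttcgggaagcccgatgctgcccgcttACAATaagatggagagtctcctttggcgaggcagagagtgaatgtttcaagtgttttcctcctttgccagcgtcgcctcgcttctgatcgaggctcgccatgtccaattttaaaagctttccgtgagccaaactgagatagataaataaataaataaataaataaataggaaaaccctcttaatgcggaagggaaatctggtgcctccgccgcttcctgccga
Gfra1: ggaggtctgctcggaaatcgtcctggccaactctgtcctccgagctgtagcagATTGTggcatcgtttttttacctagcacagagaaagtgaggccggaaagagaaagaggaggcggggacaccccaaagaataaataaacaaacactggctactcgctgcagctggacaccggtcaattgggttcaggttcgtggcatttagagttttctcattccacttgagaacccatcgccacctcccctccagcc
The motif occurred once in the second Gdnf stretch, once in the Gfra1 stretch and not in the first Gdnf stretch. On either strand it is found in 27.66% of 32851 promoters of the same length. The NR5A1 motif AAGGTCA, or TGACCTT on the other strand, was found in none of the 3 stretches and in 4.079% of those promoters. A match is a description of the letters only, and the libraries do not measure binding.

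The libraries held 29909111 to 46150400 estimated counts each. Levels below are CPM, counts relative to the library total and scaled between libraries by TMM, a trimmed-mean normalization. Levels are compared between genes only in TPM, which also account for transcript length. Markers of the gonad matched the label: of 12 Sertoli markers, 9 were higher in wild-type XY than in wild-type XX gonads, and of 11 pregranulosa markers 10 were lower. Of all 15730 tested genes, 11% differed at the same threshold, an adjusted p under 0.05. A pair of wild-type libraries also carried markers of neighbouring tissue. In replicate 3 of XY wild type the 7 nephric duct markers summed to 228 CPM, against 13.5 and 22.4 CPM in its fellows. In replicate 1 of XX wild type the 6 chromaffin markers of the adrenal medulla summed to 198 CPM, against 3.36 and 2.64 CPM, and its duct sum of 67.2 CPM was the highest of its group. Mutant libraries carried such markers too. The chromaffin sum reached 51.2 CPM in XX 1bp-ins heterozygotes and 73.8 CPM in XY 3bp-del heterozygotes. In XX 1bp-ins homozygotes its median was 38.7 and its maximum 46.4 CPM, and in the other mutant groups it did not exceed 18.7 CPM. Among these markers Pnmt was higher in XY than in XX wild type, by 4.50 log2 units, whereas the median of the 6 was -3.51. The chromaffin sum is therefore not a measure of neighbouring tissue alone. The duct sum reached 129 CPM in XX 3bp-del homozygotes. Values without the wild-type pair are given beside the results that this pair moved most.

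Gdnf was nearly silent in wild-type XX gonads and high in every XY gonad. The 3 XX wild-type libraries held 0.518, 0.456 and 0.342 CPM, or 11 to 20 estimated counts each. The 3 XY wild-type libraries held 35.5, 29.5 and 13.5 CPM. The groups did not overlap, and the lowest XY value was that of the library with duct markers, in which the 12 Sertoli markers summed to 879 CPM, against 2290 and 2098 CPM. Their part in the result was not tested. The difference was 5.87 ± 0.45 log2 units (SE; adjusted p = 0.000696, edgeR's quasi-likelihood test with Benjamini-Hochberg adjustment), and 6.33 without both marked libraries. Of the 6 genes, 2 were called at an adjusted p under 0.05 in this comparison, Gdnf and Gfra1, where 11% of all 15730 tested genes were called.

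All 3 kinds of XX homozygote expressed Gdnf. The 5 XX 1bp-ins homozygotes held 5.57, 10.6, 14.0, 5.60 and 35.9 CPM, with the last far above its fellows and as high as an XY gonad. The 5 XX 3bp-del homozygotes lay closer together, at 7.93, 5.77, 7.71, 4.59 and 4.95 CPM. The 5 XX 3bp-12bp-del homozygotes held 10.2, 9.15, 4.73, 16.2 and 14.7 CPM. The 12 Sertoli markers all rose in each of these groups, where 32.3, 44.8 and 25.6% of all tested genes were called. They summed to 792 to 2556 CPM in these homozygotes and to 336 to 429 CPM in XX wild type, and their part was not tested. Every one of these 15 libraries was above every wild-type and heterozygous XX library, the highest of which held 0.518 CPM. Gdnf rose by 5.03 ± 0.84 log2 units in 1bp-ins homozygotes (adjusted p = 0.00434, edgeR), by 3.80 ± 0.27 in 3bp-del homozygotes (adjusted p = 1.68e-05) and by 4.65 ± 0.48 in 3bp-12bp-del homozygotes (adjusted p = 0.000553). Without replicate 5 of the 1bp-ins homozygotes the first value was 4.36. The call in these 3 comparisons was kept with every library left out in turn and in every other setting tried.

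**Figure D1:**
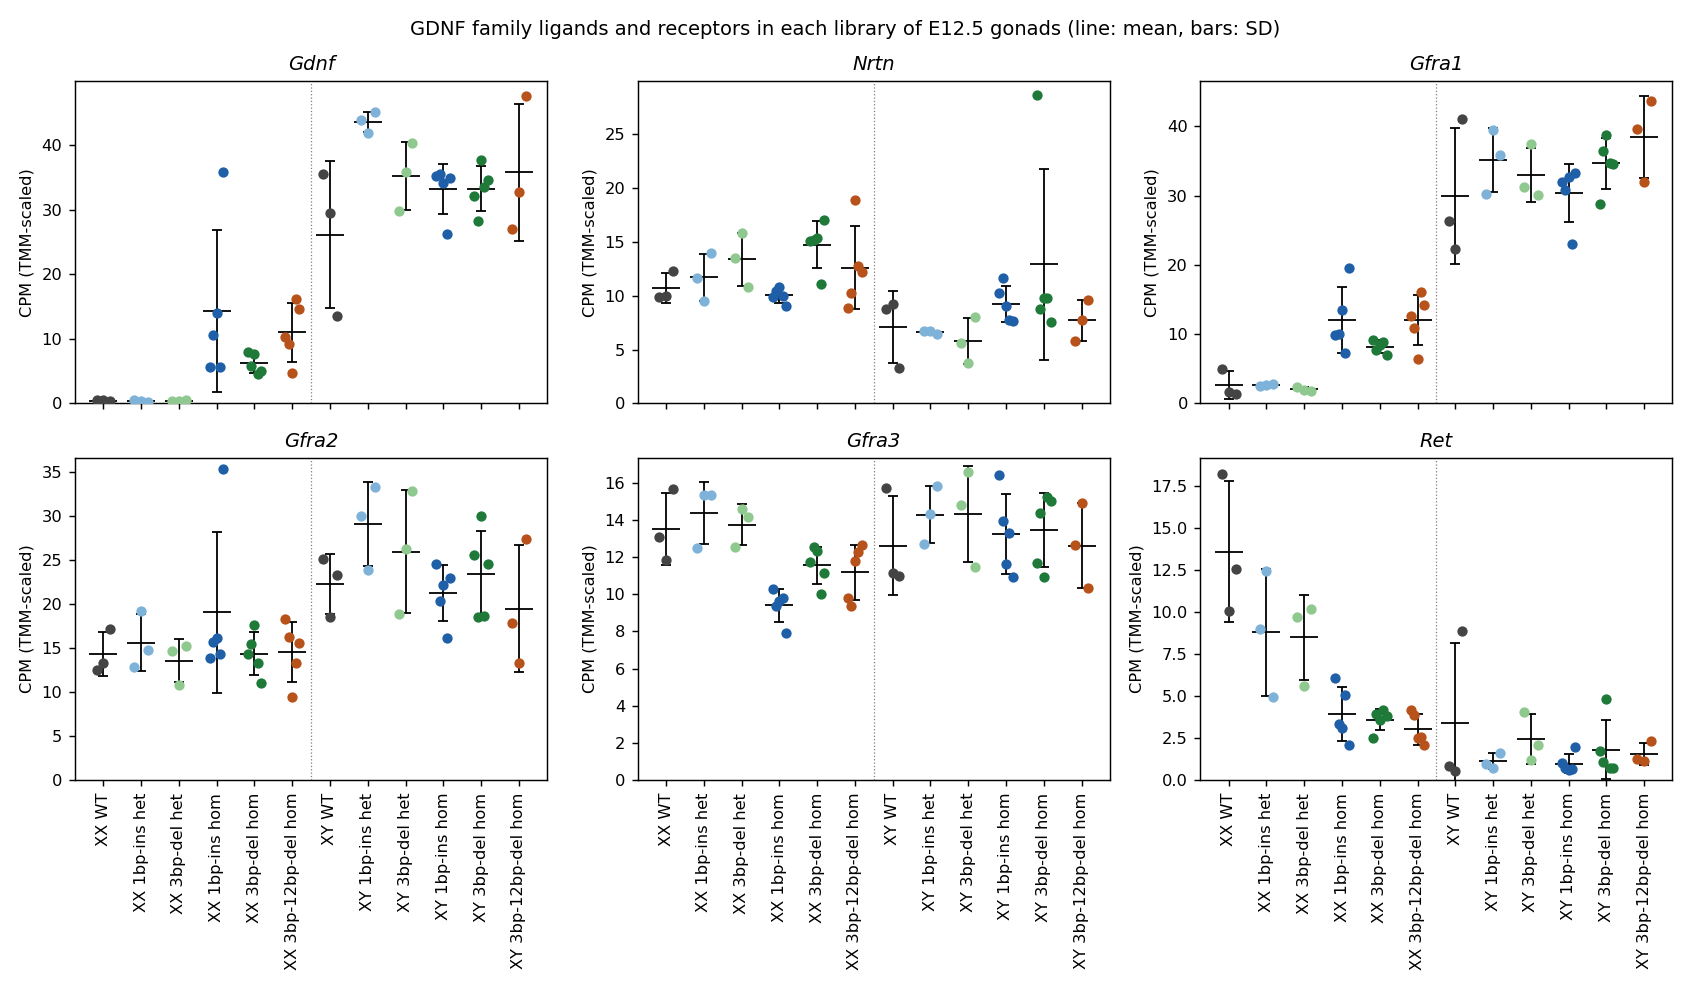
Each panel plots 1 gene, with CPM on a linear axis from 0 and the 12 groups on the horizontal axis, XX left and XY right of the dotted line. Points are libraries, the line is the group mean and the bars are the SD: Gdnf and Gfra1 step up from wild-type XX through XX homozygotes to XY, and Ret steps down from a mean of 13.6 CPM in wild-type XX.

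In XX heterozygotes Gdnf was as scarce as in the wild-type libraries, and no difference was called. The 1bp-ins heterozygotes held 0.498, 0.309 and 0.255 CPM and the 3bp-del heterozygotes 0.311, 0.422 and 0.457 CPM, both overlapping the wild-type range. The differences were -0.33 ± 0.40 and -0.17 ± 0.36 log2 units (adjusted p = 0.847 and 0.805, edgeR). Against heterozygotes of the same mutation, Gdnf was higher by 5.35 ± 0.90 in 1bp-ins homozygotes (adjusted p = 0.0105) and by 3.98 ± 0.28 in 3bp-del homozygotes (adjusted p = 8.79e-06). The 1bp-ins call was lost without heterozygote replicate 2 or 3 (adjusted p = 0.0557 and 0.0572), and its value was 4.68 without homozygote replicate 5.

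The mean Gdnf level of each XX homozygous group was below that of XY wild type, and 1 of the 3 differences was called. Their means were 54.9, 23.7 and 42.1% of the XY wild-type mean in 1bp-ins, in 3bp-del and in 3bp-12bp-del homozygotes. Set against XY homozygotes for the matching mutation they were 43.3, 18.6 and 30.7%. The means of Sox9 in the same libraries were 125, 132 and 158% of that of XY wild type, but 72.4, 87.2 and 80.8% of that of the matching XY homozygotes, so the direction depended on the reference. In XY wild type Sox9 was 158.6, 162.6 and 83.98 CPM, with the lowest value in the library with duct markers. Gdnf was lower than in XY wild type by 2.06 ± 0.30 log2 units in 3bp-del homozygotes (adjusted p = 0.00352, edgeR), and by 2.38 without XY wild-type replicate 3. In 1bp-ins and 3bp-12bp-del homozygotes the differences of -0.86 ± 0.61 and -1.25 ± 0.40 were not called (adjusted p = 0.505 and 0.114). The second of these was called by DESeq2 and in the fit over all 12 groups, and the first was called with duct and chromaffin marker levels as covariates (-1.03).

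Gdnf in XY mutants lay in the wild-type range or above it. Group means ran from 33.2 ± 3.9 CPM (SD, n = 5) in XY 1bp-ins homozygotes to 43.6 ± 1.6 CPM (n = 3) in XY 1bp-ins heterozygotes, beside 26.1 ± 11.4 CPM (n = 3) in XY wild type. In the order of the 12 group means, the only neighbours without overlapping libraries were XX wild type and XX 3bp-del homozygotes. The effect of homozygosity on Gdnf was larger in XX than in XY gonads, by 4.69 ± 0.85 log2 units for 1bp-ins, 3.48 ± 0.42 for 3bp-del and 4.22 ± 0.66 for 3bp-12bp-del (interaction terms, adjusted p = 0.0137, 0.000699 and 0.0215, edgeR). Gdnf was the 1 member called in each interaction, where 1.04, 3.83 and 0.597% of all tested genes were called. The 1bp-ins call was lost without XX wild-type replicate 2 or 3 (adjusted p = 0.0633 and 0.0671), and its value was 4.02 without XX 1bp-ins homozygote replicate 5. The 3bp-12bp-del call was lost without XX wild-type replicate 2 or 3, XY wild-type replicate 1 or 2, or XY 3bp-12bp-del replicate 1 (adjusted p = 0.0749, 0.0869, 0.0588, 0.0703 and 0.0563).

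Nrtn, the other ligand gene, was expressed in both sexes and did not follow Gdnf. The 3 XX wild-type libraries held 9.89, 10.01 and 12.3 CPM and the 3 XY wild-type libraries 8.74, 9.27 and 3.27 CPM. All XX values were above all XY values, yet the difference of -0.60 ± 0.37 log2 units was not called (adjusted p = 0.348, edgeR). The low XY value is that of the library with duct markers, without which the difference was -0.26 (adjusted p = 0.172). In XX homozygotes Nrtn rose by 0.45 ± 0.14 in 3bp-del (adjusted p = 0.0199) and was not called in 1bp-ins (-0.08, adjusted p = 0.625) or 3bp-12bp-del (0.25, adjusted p = 0.440). The 3bp-del call was lost without XX wild-type replicate 1 or 2 (adjusted p = 0.0725 and 0.0837), and the value fell to 0.20 (adjusted p = 0.234) once the trend of expression with gene length was removed. In TPM, Nrtn was the more abundant ligand transcript in all XX gonads. The ratio of Gdnf to Nrtn TPM was 0.00641 to 0.0125 in XX wild type, 0.0599 to 0.945 in the 15 XX homozygous libraries and 0.268 to 2.25 in XY gonads.

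Gfra1, the co-receptor gene of GDNF, also stood in steps from XX wild type through XX homozygotes to XY. The 3 XX wild-type libraries held 4.92, 1.58 and 1.37 CPM, with the highest value in the library that carried chromaffin markers. The 3 XY wild-type libraries held 26.4, 22.3 and 41.0 CPM, with the highest value in the library that carried duct markers. These groups did not overlap, and Gfra1 was higher in XY by 3.49 ± 0.54 log2 units (adjusted p = 0.00936, edgeR), by 4.33 without XX wild-type replicate 1 and by 4.05 without both marked libraries.

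In the 5 XX 1bp-ins homozygotes Gfra1 was 9.88, 10.1, 13.4, 7.27 and 19.6 CPM. In the 5 XX 3bp-del homozygotes it was 9.13, 7.65, 8.39, 8.92 and 6.94 CPM. In the 5 XX 3bp-12bp-del homozygotes it was 12.6, 10.9, 6.46, 16.03 and 14.2 CPM. All 15 lay above the XX wild-type and heterozygous libraries and below the lowest of the 22 XY libraries, at 22.3 CPM, so the 3 tiers did not overlap. Gfra1 rose by 2.21 ± 0.51, 1.63 ± 0.40 and 2.20 ± 0.50 log2 units in the order above (adjusted p = 0.0134, 0.00936 and 0.0161, edgeR). Without XX wild-type replicate 1 the values were 3.05, 2.47 and 3.04. The 1bp-ins call was lost without XX wild-type replicate 2 (adjusted p = 0.0560) and the 3bp-12bp-del call without replicate 2 or 3 (adjusted p = 0.0622 and 0.0550).

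In heterozygous XX gonads Gfra1 was 2.55 to 2.86 CPM in 1bp-ins and 1.83 to 2.38 CPM in 3bp-del, with differences from wild type of 0.01 ± 0.47 and -0.39 ± 0.48 log2 units (adjusted p = 0.995 and 0.656, edgeR). Homozygotes exceeded heterozygotes by 2.18 ± 0.32 in 1bp-ins (adjusted p = 0.00482) and 2.04 ± 0.15 in 3bp-del (adjusted p = 1.64e-05), and both calls were kept with each library left out in turn. Against XY wild type Gfra1 was lower by 1.86 ± 0.19 in XX 3bp-del homozygotes (adjusted p = 0.000478) and by 1.32 ± 0.29 in XX 3bp-12bp-del homozygotes (adjusted p = 0.0339). The second call was lost without replicate 1, 2 or 5 of that group or any 1 of the XY wild-type libraries (adjusted p = 0.0508 to 0.0891). In 1bp-ins homozygotes the difference of -1.31 ± 0.32 was not called (adjusted p = 0.154) and became a call without homozygote replicate 5 (-1.56, adjusted p = 0.0197). The interaction with sex was not called for Gfra1 (2.20 ± 0.53, 1.46 ± 0.44 and 1.87 ± 0.57, adjusted p = 0.0780, 0.0730 and 0.192). It was called for all 3 mutations without XX wild-type replicate 1 (3.04, 2.29 and 2.71, adjusted p = 0.00871, 0.000857 and 0.0356).

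**Figure D2:**
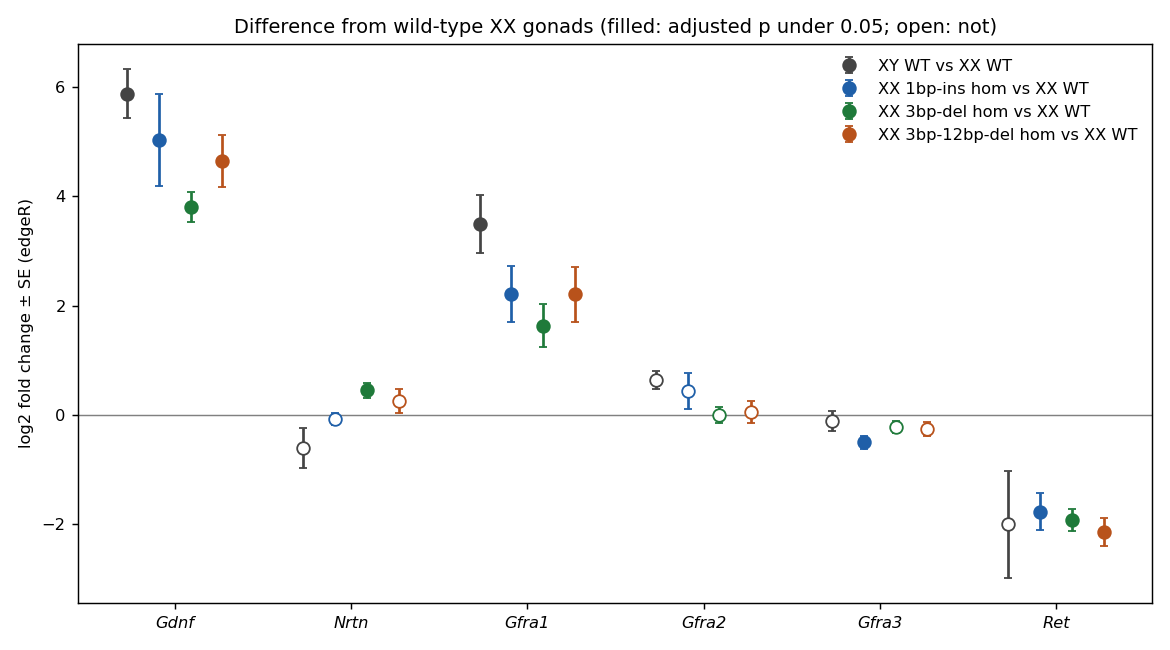
Log2 fold change against wild-type XX gonads (vertical axis, bars are the SE) of each gene in wild-type XY and the 3 XX homozygous groups. Filled points were called, open points were not: Gdnf and Gfra1 are above 0 in all 4 comparisons, Ret is below 0 in all 4 and called in the 3 XX homozygous groups, and all 4 share the XX wild-type libraries.

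Gfra2, the preferred co-receptor gene of neurturin, differed less. XX wild-type libraries held 12.503, 13.3 and 17.2 CPM and XY wild-type libraries 25.1, 18.5 and 23.3 CPM. The groups did not overlap, but the difference of 0.63 ± 0.16 log2 units was not called (adjusted p = 0.0531, edgeR). It was called without XY wild-type replicate 3 (0.61, adjusted p = 0.0243). XX homozygotes differed from XX wild type by 0.43, 0.00 and 0.05 in 1bp-ins, in 3bp-del and in 3bp-12bp-del, none of them called (adjusted p = 0.344, 0.994 and 0.890). In the 1bp-ins homozygotes replicate 5 held 35.3 CPM and its 4 fellows 13.8 to 16.1 CPM. Against XY wild type Gfra2 was lower by 0.63 in 3bp-del homozygotes (adjusted p = 0.0250), a call lost without homozygote replicate 1 or XY wild-type replicate 1 (adjusted p = 0.0558 and 0.102).

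Gfra3, the co-receptor gene of artemin, was the most even of the 6. It lies on chromosome 18, on the minus strand. Group means ran only from 9.40 CPM in XX 1bp-ins homozygotes to 14.4 CPM in XX 1bp-ins heterozygotes, and all neighbours in the order overlapped. The wild-type sexes differed by -0.10 ± 0.18 log2 units (adjusted p = 0.753, edgeR). In XX 1bp-ins homozygotes, at 10.3, 9.36, 9.65, 9.78 and 7.91 CPM, Gfra3 fell by 0.50 ± 0.12 log2 units (adjusted p = 0.0132) from 13.1, 11.8 and 15.6 CPM in wild type. The groups did not overlap, and the call was lost without XX wild-type replicate 3 (-0.39, adjusted p = 0.0657). In 3bp-del and in 3bp-12bp-del the values of -0.23 and -0.25 were not called (adjusted p = 0.115 and 0.177), and with the length trend removed the 3bp-del value was -0.32 (adjusted p = 0.0358).

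Ret ran opposite to Gdnf and Gfra1. The 3 XX wild-type libraries held 18.2, 10.04 and 12.6 CPM. The 5 XX 1bp-ins homozygotes held 6.07, 3.33, 3.10, 5.04 and 2.09 CPM and the 5 XX 3bp-del homozygotes 2.52, 3.92, 3.60, 4.17 and 3.82 CPM. The 5 XX 3bp-12bp-del homozygotes held 4.16, 3.90, 2.48, 2.55 and 2.11 CPM. No homozygous library reached the lowest wild-type one. Ret fell by 1.77 ± 0.34, 1.92 ± 0.20 and 2.14 ± 0.26 log2 units (adjusted p = 0.00553, 8.16e-05 and 0.000728, edgeR), and each call was kept with every library left out in turn and in every other setting tried. Of the 6 genes 4, 4 and 3 were called in these comparisons, where 32.3, 44.8 and 25.6% of all tested genes were called. Gdnf and Gfra1 were among the rises and Ret among the falls each time. Of 11 pregranulosa markers 9, 9 and 10 fell in the same comparisons (medians -1.12, -0.73 and -1.13 log2 units). They summed to 872 to 1171 CPM in XX wild type and 184 to 596 CPM in XX homozygotes, and their part in the fall of Ret was not tested.

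Heterozygous XX gonads held Ret at 9.0, 12.4 and 4.93 CPM in 1bp-ins and 9.68, 5.61 and 10.2 CPM in 3bp-del. Both ranges overlapped that of wild type, and the differences of -0.64 ± 0.37 and -0.70 ± 0.28 log2 units were not called by edgeR (adjusted p = 0.711 and 0.160). DESeq2 called the second. None of the 6 genes was called by edgeR in either heterozygous group, and at an unadjusted p under 0.05 only Ret in 3bp-del passed. Over all genes 0 and 10.9% were called, with 1251 of the 15694 genes in 1bp-ins at an unadjusted p under 0.05 and 94 called by DESeq2, which gave no adjusted p for the 6 genes there. Against heterozygotes, Ret was lower by 1.204 ± 0.21 log2 units in 3bp-del homozygotes (adjusted p = 0.00207, edgeR), a call lost in the fit over all 12 groups (adjusted p = 0.126). In 1bp-ins it differed by -1.15 ± 0.38 (adjusted p = 0.0681), a call without homozygote replicate 1 (-1.36, adjusted p = 0.0438). In both of these comparisons 3 of the 6 genes were called, where 17.3 and 27.1% of all genes were.

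In XY gonads Ret was mostly low, with its highest value in a wild-type library. XY wild-type replicates 1 and 2 held 0.874 and 0.546 CPM, and replicate 3, the library with duct markers, held 8.87 CPM. Among the 19 XY mutant libraries Ret ran from 0.583 to 4.83 CPM, overlapping the 2.09 to 6.07 CPM of XX homozygotes. No XY wild-type library reached the lowest XX one, but the difference of -2.003 ± 0.97 log2 units was not called (adjusted p = 0.245, edgeR). Without that library it was -4.25 ± 0.36 (adjusted p = 0.000178), and without both marked libraries -3.97 ± 0.26 (adjusted p = 2.85e-07). The same library set the comparison of XX homozygotes with XY wild type. For 3bp-del homozygotes Ret differed by 0.07 with it and by 2.35 without it (adjusted p = 0.961 and 0.000514), and for 3bp-12bp-del by -0.19 and 2.11 (adjusted p = 0.933 and 0.00665).

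Duct markers are given beside Ret because Ret is itself a duct gene. In XY wild-type replicate 3 Cdh16, an adhesion protein of kidney tubules, was 80.4 CPM, Wnt9b 34.2 CPM and Pax2, a transcription factor of the duct, 25.7 CPM. In the XX wild-type libraries the 7 duct markers summed to 67.2, 40.5 and 38.1 CPM, and in XX homozygotes to 17.2 to 37.5 CPM except for 129 CPM in 3bp-del replicate 4. Of these markers 1 of 6, 0 of 7 and 2 of 7 tested fell in the homozygous groups and 0 rose. Over all genes 32.3, 44.8 and 25.6% were called there. XX wild-type replicate 3, which had the lowest duct mean of its group with Cdh16 at 1.06 CPM, held 12.6 CPM of Ret. XX 3bp-del homozygote replicate 4, with Cdh16 at 41.1 CPM, held 4.17 CPM of Ret, the highest value of its group. XX wild-type replicate 1, with the highest duct sum of its group, held 18.2 CPM of Ret, also the highest of its group. With the mean levels of duct and chromaffin markers as covariates in 1 fit over all 12 groups, Ret fell by 1.57, 1.72 and 1.60 log2 units in the 3 homozygous groups (adjusted p = 0.0158, 0.00537 and 0.0301, edgeR). The chromaffin marker Pnmt itself rose against XX wild type, by 4.50 in XY wild type and 3.31 in XX 1bp-ins homozygotes (adjusted p = 0.0034 and 0.0022, edgeR). No other chromaffin marker was called there, so this covariate also varied with sex and genotype. Which cells carry the Ret reads was not tested.

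**Figure D3:**
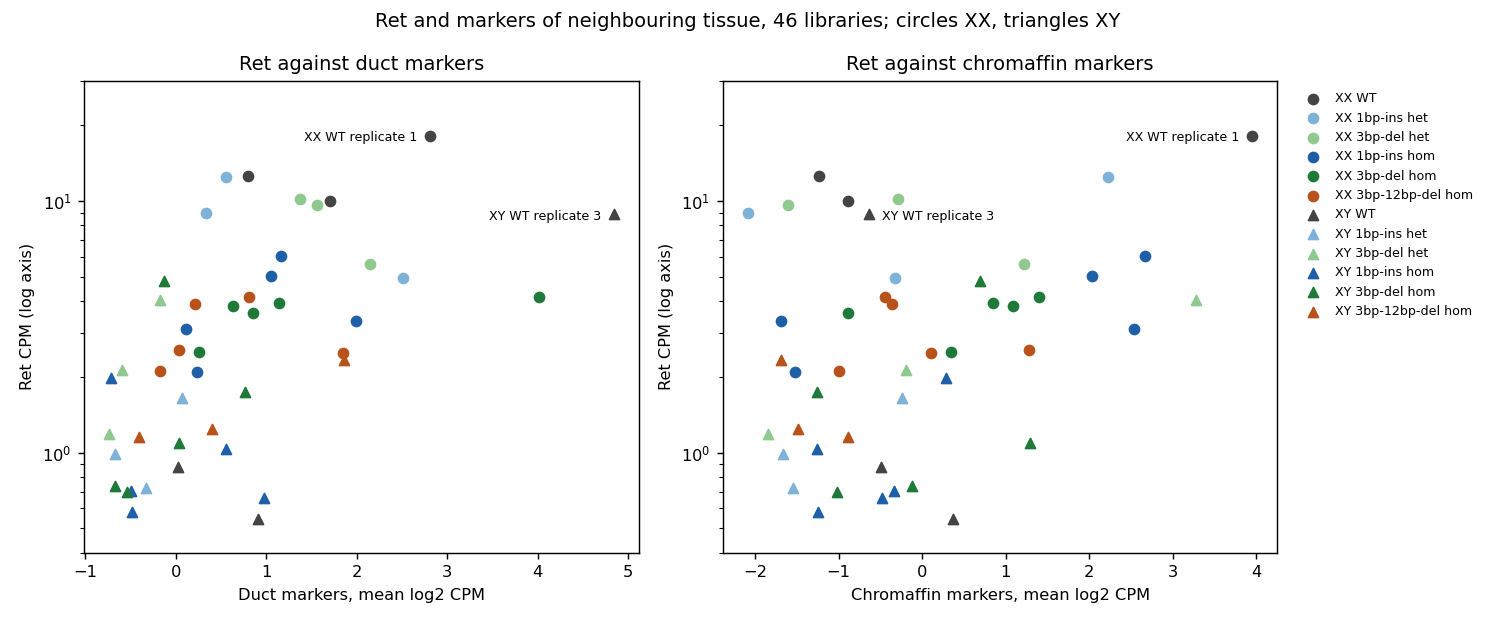
Ret CPM on a log axis against the mean log2 CPM of 7 duct markers (left) and 6 chromaffin markers (right), 1 point per library, circles XX and triangles XY. XY wild-type replicate 3 stands apart at the right of the duct panel with 8.87 CPM of Ret, and XX wild-type replicate 1 at the right of the chromaffin panel with 18.2 CPM.

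Across libraries, taken as deviations from the group mean, no relation of Ret with the duct markers was called in XX (Pearson's r = 0.08, Spearman's rho = 0.18, n = 24, permutation p adjusted over 11 relations = 0.794 and 0.680). In XY r was 0.66 and rho 0.59 (n = 22, adjusted permutation p = 0.107 and 0.0528), and r was 0.41 without the 2 libraries farthest from the median, wild-type replicates 3 and 1. Gfra1 and the duct markers had r = -0.02 in XX and 0.44 in XY (adjusted permutation p = 0.943 and 0.570).

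The balance of Gfra1 and Ret differed between the groups, as a description of 2 genes already tested. The ratio of Gfra1 to Ret TPM was 0.155 to 0.337 in XX wild type and 0.194 to 0.791 in XX heterozygotes. In the 15 XX homozygous libraries it was 1.61 to 10.6, and in the 22 XY libraries 5.503 to 66.7. Ret was thus the more abundant of this pair, in TPM, in every wild-type and heterozygous XX gonad, and Gfra1 in every homozygous XX gonad and every XY gonad. The lowest XY ratio was that of wild-type replicate 3.

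**Figure D4:**
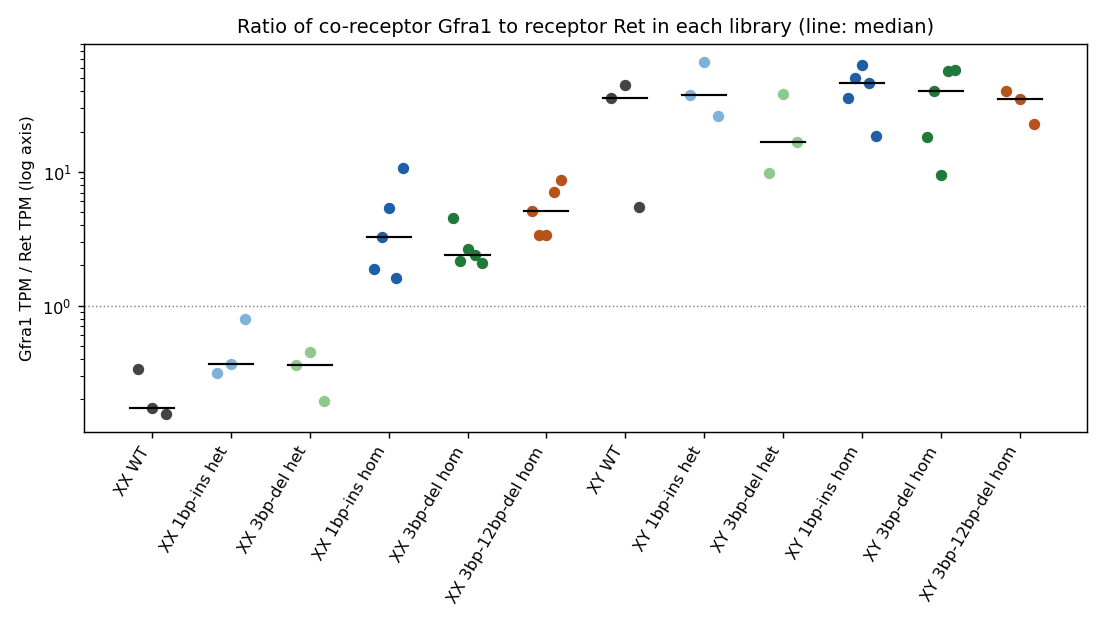
Ratio of Gfra1 to Ret TPM on a log axis in each library (points) of the 12 groups, with the median as a line and equal TPM as a dotted line. The ratio is below 1 in all 9 wild-type and heterozygous XX libraries and above 1 in the other 37.

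Among the 15 XX homozygous libraries, Gdnf varied with Gfra1 and with Amh, the Sertoli hormone that removes the female ducts. No relation with Sox9 was called, and the difference between these correlations was not tested. As deviations from the group mean on the log2 CPM scale, Gdnf and Amh had r = 0.987 and rho = 0.993 (n = 15, permutation p = 1e-05, the smallest that 100000 permutations can give, 0.00011 adjusted over 11 relations), and r was 0.975 without the 2 farthest libraries. Gdnf and Gfra1 had r = 0.911 and rho = 0.875 (adjusted permutation p = 0.000935 and 0.00165), and 0.842 without 2. Gdnf and Sox9 had r = 0.15 and rho = 0.21 (adjusted permutation p = 0.793 and 0.680). The correlation with Gfra2 (r = 0.815, rho = 0.664, adjusted permutation p = 0.0217 and 0.0489) fell to 0.545 without 2 libraries, 1 of them 1bp-ins replicate 5. That with Ret was negative (r = -0.716, rho = -0.654, adjusted permutation p = 0.0488 and 0.0541) and -0.465 without 2. No relation of Gdnf with Gfra3 or Nrtn was called (r = -0.22 and -0.25, adjusted permutation p = 0.638 and 0.570).

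**Figure D5:**
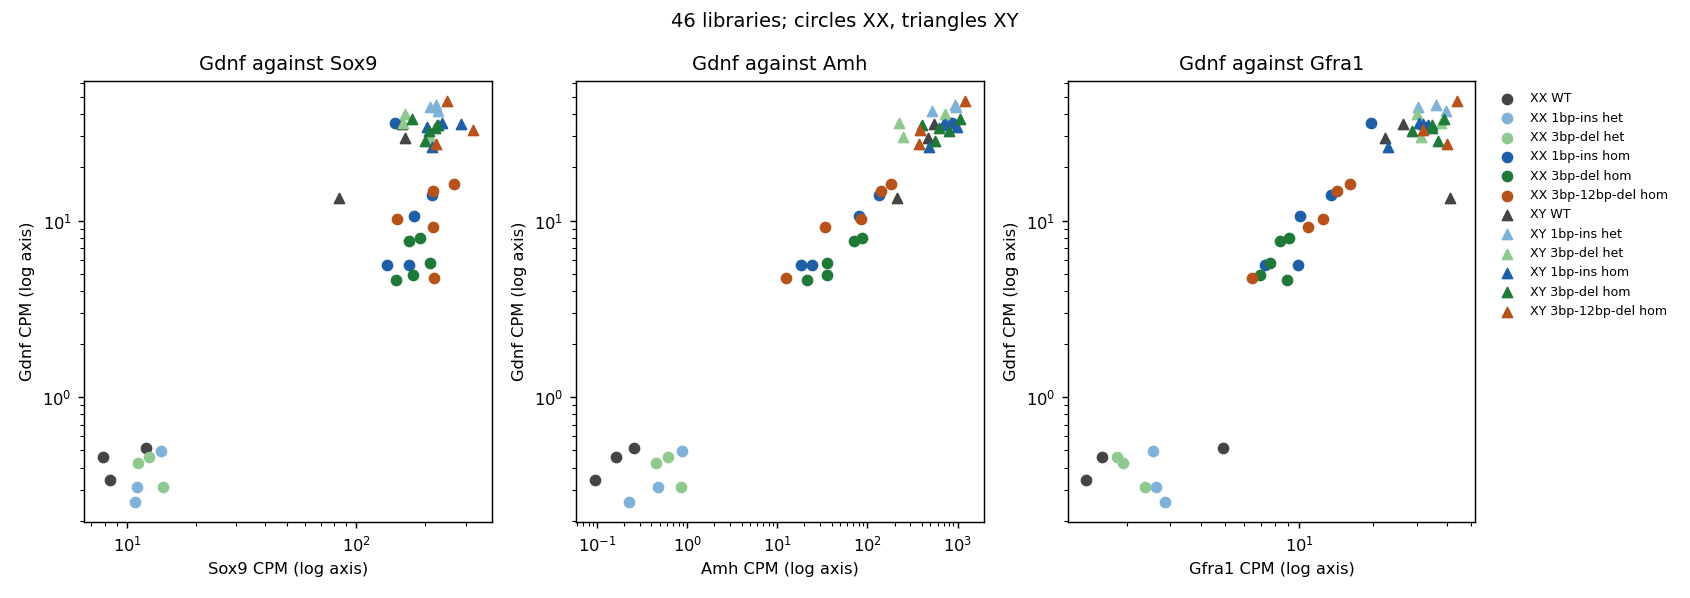
Gdnf CPM against Sox9, Amh and Gfra1 CPM in 46 libraries, all axes logarithmic, circles XX and triangles XY. XX homozygotes share the Sox9 range of XY gonads while their Gdnf spreads from 4.59 to 35.9 CPM, in step with Amh and Gfra1.

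By Pearson correlation of log2 CPM over the 46 libraries, among 12325 genes, the patterns most like Gdnf were those of Dhh, the Hedgehog ligand of Sertoli cells (r = 0.993), Smtnl2 (0.991) and Tesc (0.990). For Gfra1 they were Map3k21 (0.973), Col2a1 (0.969) and Dtna (0.967). Taken as deviations from the group means, the values were 0.930, 0.906 and 0.931 for the genes like Gdnf and lower, at 0.626, 0.702 and 0.612, for those like Gfra1. For Gfra2 they were Adamts2 (0.907), Masp1 (0.896) and Col4a4 (0.896), and 0.890, 0.823 and 0.880 as deviations. Ret was near to Slc4a8 (0.918) and Amph (0.899), at 0.762 and 0.655 as deviations, and Nrtn to Camsap3 (0.798), Gltp (0.795) and Dusp9 (0.785), at 0.755, 0.687 and 0.625. No gene came closer to Gfra3 than Sppl3 (0.604, and 0.612 as deviations). These libraries share the 2 sexes and the mutation, so the values describe likeness only.

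In XY mutants against XY wild type none of the 6 genes was called by edgeR in any of the 5 groups. Over all genes 0 were called in homozygotes of 1bp-ins and of 3bp-del and in both heterozygous groups, and 0.013% in 3bp-12bp-del homozygotes. At an unadjusted p under 0.05 there were 2232, 1722, 1052, 943 and 740 genes in 1bp-ins, in 3bp-del and in 3bp-12bp-del homozygotes and 1bp-ins and 3bp-del heterozygotes. DESeq2 called 120, 178, 145, 40 and 17. XY wild-type replicate 3 is 1 of the 3 controls of each of these comparisons. In XX homozygotes against XY wild type 0, 4 and 1 of the 6 genes were called by edgeR in 1bp-ins, in 3bp-del and in 3bp-12bp-del, where 0.126, 17.6 and 5.6% of all genes were. For 1bp-ins 2530 genes had an unadjusted p under 0.05, and DESeq2 called 1 of the 6 genes, Gfra1. The call outside those named above was Nrtn in 3bp-del, higher by 1.07 ± 0.31 log2 units (adjusted p = 0.0433), and by 0.72 without XY wild-type replicate 3 (adjusted p = 0.00878). It was lost without XY wild-type replicate 1 or homozygote replicate 1, 2, 3 or 5 (adjusted p = 0.0799 to 0.0950).

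Of 8 other genes of the GDNF family, ligands, co-receptors and binding partners, 5 were tested between the wild types. Of these 1 was called, where 11% of all genes were: Gdf15, a stress cytokine that signals through GFRAL and RET. It was higher in XY by 1.88 ± 0.41 log2 units (adjusted p = 0.0312, edgeR), and in XX 1bp-ins, in 3bp-del and in 3bp-12bp-del homozygotes by 1.999 ± 0.39, 2.05 ± 0.35 and 2.19 ± 0.55 (adjusted p = 0.00562, 0.000874 and 0.0155). It remained scarce, at no more than 1.36 CPM in any library. Of the 5 tested in each group of XX homozygotes, 2, 2 and 1 rose and 0, 1 and 1 fell, where 32.3, 44.8 and 25.6% of all genes were called. Gfra4, the co-receptor gene of persephin, rose by 0.47 ± 0.15 and 0.81 ± 0.13 in 1bp-ins and 3bp-del homozygotes (adjusted p = 0.0410 and 0.000767). The falls were those of Sdc3, a membrane proteoglycan, by 0.27 ± 0.06 in 3bp-del (adjusted p = 0.00560), and of Gas1, a membrane protein related to the GFRα family, by 0.26 ± 0.08 in 3bp-12bp-del (adjusted p = 0.0451). Artn and Pspn, which encode artemin and persephin, and Gfral did not exceed 2.21, 0.032 and 0.0221 CPM in any library. List medians were -0.11, -0.06 and -0.05 in the XX homozygotes, beside 0.00, -0.03 and 0.00 over all tested genes.

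Of 15 adaptors and effectors of RET, 1 was higher in XY wild type and 0 lower, where 11% of all genes were called. In XX 1bp-ins, in 3bp-del and in 3bp-12bp-del homozygotes 1, 1 and 4 rose and 3, 8 and 3 fell of 15 tested, where 32.3, 44.8 and 25.6% of all genes were called in either direction. Dok1, a docking protein of receptor tyrosine kinases, rose in each (0.87 ± 0.12, 0.79 ± 0.09 and 0.86 ± 0.14 log2 units, adjusted p = 0.00168, 0.000141 and 0.00277, edgeR) and was higher in XY wild type by 0.79 ± 0.18 (adjusted p = 0.0381). Sos1, a RAS exchange factor, fell by 0.44, 0.55 and 0.27 and Pik3r1, a subunit of PI3 kinase, by 0.76, 0.59 and 0.55. Grb2 and Dok4 were not called in any of these comparisons. List medians were -0.07, -0.19 and 0.01.

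Of 14 genes known to rise with GDNF and RET signalling in ureteric bud or spermatogonial stem cells, 12 were tested between the wild types. Of these 4 were higher in XY and 0 lower, where 11% of all genes were called. In XX 1bp-ins, in 3bp-del and in 3bp-12bp-del homozygotes 5, 5 and 5 rose and 2, 2 and 1 fell of 14, 13 and 13 tested, beside the same 32.3, 44.8 and 25.6% of all genes. Etv4, an ETS transcription factor, was 8.86 to 14.1 CPM in XX wild type and 25.2 to 53.5 CPM in XX homozygotes, with no overlap, and rose by 1.83 ± 0.28, 1.96 ± 0.16 and 1.92 ± 0.18 log2 units (adjusted p = 0.00277, 4.52e-05 and 0.000312, edgeR). Its relative Etv5 rose by 1.26 ± 0.18, 1.26 ± 0.13 and 1.37 ± 0.13, and Dusp6, a phosphatase that dampens ERK, by 0.92 ± 0.10, 0.87 ± 0.10 and 1.00 ± 0.11. All 3 are also targets of FGF signalling. The other rises in each group were Wnt11 and Cxcr4, whereas Spry1, which was higher in XY wild type by 1.12 ± 0.21 (adjusted p = 0.0180), was not called (0.37, 0.37 and 0.32). The falls were Met, a receptor tyrosine kinase, in 1bp-ins and 3bp-12bp-del, Mmp14, a membrane protease, in 1bp-ins and 3bp-del, and Bcl6b in 3bp-del. List medians were 0.32, 0.37 and 0.11. The interaction with sex was called for 3, 4 and 2 of 14, 14 and 13 tested, where 1.04, 3.83 and 0.597% of all genes were, and was positive for each, with Etv4 at 1.74, 1.71 and 1.58 (adjusted p = 0.0144, 0.00198 and 0.0294).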

How the data were processed

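The authors deposited estimated counts and TPM per gene for 46 libraries of poly(A) RNA from whole gonad pairs; 8 to 8.9% of the estimated counts per library were not whole numbers. Per the submitters' processing notes, reads were placed on mm10. Which aligner, quantifier, annotation and strand setting were used is not given in the sources used here. Each table also has 1 column of per-sample values matching no sample, which was not used.

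Estimated counts were rounded and tested with edgeR 4.0.16 (R 4.3.3): TMM, low genes removed by filterByExpr within each comparison, robust quasi-likelihood test, Benjamini-Hochberg over all genes tested, call at 0.05. The SE was taken as |log2 fold change| over the root of the F statistic. CPM was scaled by TMM over all libraries, and log2 CPM used a prior count of 2. Alternatives used DESeq2 1.42.0, other normalization, filters, covariates and libraries. The procedure was tested on counts simulated with the same spread for every gene and no outlying library. That test therefore does not cover libraries that stand far from their fellows. Libraries within a group differed beyond counting noise (lowest chi-square per degree of freedom 12.6 over 71 pairs). Depth limits precision most for Gdnf in XX gonads.

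The 6 genes and all lists were chosen with earlier results of these data known. Up to 4 called and 2 uncalled genes were named per list, by smallest adjusted p, and for each of the 6 genes the 3 most like it in pattern, of which 1 is not reported here. Cxcr4, Spry1, Met, Mmp14, Bcl6b and the scarce Artn, Pspn and Gfral were named after their values were seen.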

Additional observations from a re-analysis of the deposited data

Results flagged for a closer look

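In groups of 4 to 10 libraries, 6 of 30 combinations of a gene and a group held a library far from its fellows by Dixon's test, of which chance gives about 1 in 20. XX 1bp-ins homozygote replicate 5 was the highest of its group for Gdnf (35.9 CPM) and for Gfra2 (35.3 CPM). Its Sertoli markers summed to 2556 CPM, against 858 to 1489 CPM in its fellows, and their part was not tested. XY 1bp-ins homozygote replicate 4 was the lowest of its group for Gdnf (26.2 CPM) and for Gfra1 (23.0 CPM), with Sertoli markers at 1946 CPM, against 2475 to 2801 CPM. XY 3bp-del homozygote replicate 3 was the highest of its group for Ret (4.83 CPM), and its neural crest, glia and neuron markers summed to 222 CPM, against 132 to 162 CPM. The part of these markers, like that of the Sertoli markers, was not tested. XY 3bp-del homozygote replicate 1 was the highest of its group for Nrtn (28.7 CPM).

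The effect of homozygosity on Gdnf differed between XX and XY gonads, by an interaction term of 4.69 log2 units for 1bp-ins, 3.48 for 3bp-del and 4.22 for 3bp-12bp-del (adjusted p = 0.0137, 0.000699 and 0.0215, edgeR). The 1bp-ins call was lost without XX wild-type replicate 2 or 3, and the 3bp-12bp-del call without any 1 of 5 libraries (adjusted p = 0.0563 to 0.0869).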

How the results depend on the processing

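Of 917 recomputed log2 fold changes of the 6 genes, 814 kept direction and side of the threshold. Of the others 43 became calls, 44 lost a call and 16 changed sign. Ret in XX homozygotes against XY wild type was not among the 917. Counts of called genes were kept apart from these, and those that moved by more than 1.5 times are given below. The causes were not tested. The counts of the 6 genes and of all genes called by edgeR are those in the report, in the order 1bp-ins, 3bp-del, 3bp-12bp-del.

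DESeq2 called 1 of the 6 genes in XX 3bp-del heterozygotes, 1 and 3 in XX 1bp-ins and 3bp-12bp-del homozygotes against XY wild type, and 2, 2 and 2 in the interactions. Over all genes it called 2818 between wild types, 94 and 2694 in XX heterozygotes, 120, 178 and 145 in XY homozygotes, 40 and 17 in XY heterozygotes, 646 (1bp-ins) and 1800 (3bp-12bp-del) against XY wild type, and 409, 1562 and 425 in the interactions. With all 12 groups in 1 fit, 1 and 2 of the 6 genes were called in XX 1bp-ins and 3bp-12bp-del homozygotes against XY wild type and 2, 2 and 2 in the interactions. Over all genes that fit called 5044 between wild types, 2 and 723 in XX heterozygotes, 802, 653 and 210 in XY homozygotes, 1 and 188 in XY heterozygotes, 1960, 4887 and 2289 against XY wild type, and 512, 1954 and 437 in the interactions.

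With duct and chromaffin covariates the counts against XY wild type were 3 (1bp-ins) and 2 (3bp-12bp-del) of the 6 genes, and 2, 2 and 2 in the interactions, and Gfra2 in XX 3bp-12bp-del homozygotes was -0.051. Over all genes they gave 5488 between wild types, 2461 in XX 3bp-12bp-del homozygotes, 3 and 1103 in XX heterozygotes, 2, 50 and 164 in XY homozygotes, 4 in XY 3bp-del heterozygotes, 1560, 4949 and 2525 against XY wild type, 4137 for 1bp-ins homozygotes against heterozygotes, and 1170, 3558 and 711 in the interactions. Without XX wild-type replicate 1 and XY wild-type replicate 3, an alternative chosen after seeing the data for the interactions, 4 of the 6 genes and 6817 of all were called between wild types, and 2, 3 and 3 of the 6 and 1247, 3331 and 2530 of all in the interactions. With the length trend removed, 3392 genes were called in XX 1bp-ins homozygotes, 437 in XX 3bp-del heterozygotes, 1 and 2 in XY 3bp-12bp-del homozygotes and 3bp-del heterozygotes, and 41 in XX 1bp-ins homozygotes against XY wild type. With no expression filter the last was 33, XY 3bp-del homozygotes, 1bp-ins and 3bp-del heterozygotes had 1, 1 and 3, and 0 of the 6 genes were called in XX 3bp-12bp-del homozygotes against XY wild type.

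Replicate numbers did not pair the samples: in no comparison was the correlation of deviations over 0.1 in every pair, although in XX 3bp-del homozygotes against wild type (0.0767 to 0.348) each of 3 samples correlated best with its own number, as a hint from the data. With the replicate block, 1 of the 6 genes, Gfra1, was called in XX 3bp-del homozygotes against XY wild type, where Gdnf was -1.76, Gfra2 -0.48 and Nrtn 1.23 (adjusted p = 0.0619, 0.140 and 0.124), and 0 in the 3bp-12bp-del interaction, where Gdnf was 3.62 (adjusted p = 0.0771). Over all genes the block gave 1088 between wild types, 1217 in XX 3bp-12bp-del homozygotes, 507 in XX 3bp-del heterozygotes, 0 in XY 3bp-12bp-del homozygotes, 1, 596 and 267 against XY wild type, and 398 and 11 in the 3bp-del and 3bp-12bp-del interactions.

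Leaving out 1 library at a time, the calls among the 6 genes ran from 2 to 4 between wild types, 0 to 2, 2 to 5 and 0 to 1 against XY wild type, 1 to 4 for 1bp-ins homozygotes against heterozygotes, and 0 to 3, 1 to 2 and 0 to 2 in the interactions. Over all genes they ran from 639 to 6937 between wild types, 3026 to 5604 and 2276 to 4493 in XX 1bp-ins and 3bp-12bp-del homozygotes, 0 to 1 and 166 to 1226 in XX heterozygotes, 0 to 3 and 0 to 56 in XY 3bp-del and 3bp-12bp-del homozygotes, 0 to 5 and 0 to 3 in XY heterozygotes, 6 to 575, 1114 to 3555 and 322 to 2474 against XY wild type, 645 to 3242 and 2653 to 5424 against heterozygotes, and 71 to 1590, 234 to 3835 and 10 to 2957 in the interactions. Among the 917 values, uncalled ones that changed sign here were Gfra3 between wild types (-0.29 to 0.025), Nrtn in XX 1bp-ins homozygotes (-0.13 to 0.031), Gfra2 in 3bp-del (-0.089 to 0.15) and 3bp-12bp-del (-0.050 to 0.19), Gfra1 in XX heterozygotes (-0.29 to 0.85 and -0.70 to 0.44), and Gfra3 against XY wild type in 3bp-del (-0.21 to 0.069) and 3bp-12bp-del (-0.26 to 0.0066). Ret in XX 3bp-12bp-del homozygotes against XY wild type, not among them, also changed sign without the wild-type library with duct markers.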
